A study of Mus musculus with 44 samples.

Results

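Fibronectin (Fn1), thrombospondin 1 (Thbs1) and the TGFb-induced matrix protein Tgfbi are secreted proteins that cells bind while they move through or rebuild tissue. They were followed together with Sparc, the syndecan Sdc4, the proteoglycan versican (Vcan) and the collagen chains Col1a1 and Col4a1. The 8 genes were taken by their symbols, written FN1, THBS1, TGFBI, SPARC, SDC4, VCAN, COL1A1 and COL4A1 in the files, from the gene tables of mouse spinal cord cells and of cultured cells. Of the 8, 7 stood among the 8218 genes of the cord table, which has no line for Col4a1, and all 8 stood among the 12335 genes of the culture table. The filter on low values removed no gene of either table. It asked for a value of at least 1, which is also the value entered for genes without a read, so passing it does not show expression.

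The cord table covered 21 libraries from C57BL/6 mice, made of cells sorted out of the cord after a contusion of 200 kdyn through a laminectomy. Monocytes were taken at 16 h and at 1, 3 and 7 days (2 libraries each), and microglia at time 0 (3 libraries), 1 h, 16 h and 1, 3 and 7 days (2 libraries each). By their labels the time 0 animals too were injured, and no gate is named for the sort. The culture table held 23 libraries of C57BL/6 cells given TGFb1 at 100 ng/ml: bone marrow-derived macrophages grown with M-CSF, and microglia taken from glial cultures of newborn mice. Each culture was sampled at 0, 1, 3, 6, 16 and 20 h with 2 libraries, except the macrophages at 6 h, which had 1; no later untreated culture was included, so TGFb1 and time in culture cannot be told apart. The labels name no separate animals or cultures for these libraries, so the p-values measure the spread between libraries, which may be technical. The values are reads per gene scaled for each library by the authors, called scaled reads here, with a 1 entered for genes that had no read. The 2 tables were scaled separately, so their levels are not set side by side. 1 cord microglia library titled 1 h carries a time tag of 2 h, and the title was used. In the reference annotation Fn1, Thbs1, Vcan and Col4a1 overlap other genes, and no source used here says whether the counting used strand, so reads of such neighbours cannot be told apart from theirs.

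Matrix proteins of this kind accumulate where the cord is injured and form part of the scar. Fn1 and Thbs1 are ligands for integrins and, for Thbs1, CD36 and CD47; Thbs1 can also activate latent TGFb. Tgfbi is a secreted integrin ligand named for its induction by TGFb, and Fn1 is a standard TGFb target in fibroblasts. Sdc4 is a transmembrane receptor that binds Fn1 and Thbs1 next to the integrins, Sparc and Vcan modulate adhesion, and Col1a1 and Col4a1 build fibrillar and basement membrane collagen.

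The promoters of 3 of the genes are shown for their levels in the cultures with TGFb1. Tgfbi rose in both cultures, Sdc4 moved up and then down in macrophages, and Sparc was nearly without reads in macrophages at all times, 0 h included. Each run covers 250 bases before to 50 bases after the gene's start in RefSeq on GRCm38.p6, which is not the mm9 build of the authors' alignment. Capitals mark CAGAC, a core of sites that Smad proteins bind, read on either strand.
Tgfbi, chr13:56609336-56609635, plus strand: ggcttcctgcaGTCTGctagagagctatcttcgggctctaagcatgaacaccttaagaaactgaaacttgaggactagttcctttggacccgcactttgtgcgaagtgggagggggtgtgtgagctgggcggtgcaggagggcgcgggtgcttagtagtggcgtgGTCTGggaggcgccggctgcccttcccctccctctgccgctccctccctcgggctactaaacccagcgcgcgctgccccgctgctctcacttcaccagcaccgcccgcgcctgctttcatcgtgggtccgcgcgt
Sdc4, chr2:164443139-164443438, minus strand: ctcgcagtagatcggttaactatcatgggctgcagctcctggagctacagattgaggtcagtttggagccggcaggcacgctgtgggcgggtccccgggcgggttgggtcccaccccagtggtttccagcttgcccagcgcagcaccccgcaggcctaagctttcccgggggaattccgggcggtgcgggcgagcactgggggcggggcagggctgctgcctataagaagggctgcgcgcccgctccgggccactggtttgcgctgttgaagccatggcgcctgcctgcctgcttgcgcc
Sparc, chr11:55420031-55420330, minus strand: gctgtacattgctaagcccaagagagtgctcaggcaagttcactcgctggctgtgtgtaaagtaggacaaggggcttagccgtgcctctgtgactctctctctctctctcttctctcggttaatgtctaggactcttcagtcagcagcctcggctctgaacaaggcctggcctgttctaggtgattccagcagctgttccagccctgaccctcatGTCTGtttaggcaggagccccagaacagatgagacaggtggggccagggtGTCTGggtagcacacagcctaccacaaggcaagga
Tgfbi and Sparc each held 2 matches of CAGAC or its reverse GTCTG, and Sdc4 held 0. Of 32851 promoter windows of the same length, 49.6% held at least 1 match and 16.2% held 2 or more. TGAGTCA, the motif of AP-1 factors, was searched on both strands as well and was in none of the 3 windows, against 5.2% of all windows. With no TGAGTCA match, no matches of the 2 motifs overlapped there. RefSeq promoters were matched for 5 of the 8 genes, and the windows of Vcan and Col4a1 held neither motif. A match describes the letters only.

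The libraries differed in depth and in the RNA of other cells they held. From the smallest step between low values, the monocyte libraries held about 132117 to 728109 reads and the cord microglia 30505 to 185670, so that 1 read was worth 0.17 to 0.85 scaled reads in monocytes and 0.853 to 4.67 in microglia. The 13 neutrophil markers measured made up 0.14 to 0.574% of the total in monocytes and 4.40 to 22.9% in cord microglia. The 10 microglia markers measured made up 0.138 to 0.511% in monocytes and 0.177 to 1.38% in cord microglia. For the 11 monocyte markers these shares were 2.33 to 3.06% and 1.26 to 2.52%. Both pairs of ranges overlapped over all times, while the groups separated at each shared time. Markers of red blood cells exceeded 0.1% in 4 libraries (1 monocyte and 3 microglia), and each count of calls was also made without them. The cultures held 1171515 to 1879803 reads per macrophage library and 1746405 to 2249042 per microglia library. In these bulk samples, fewer cells of a type and less RNA per cell cannot be told apart.

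**Figure D1:**
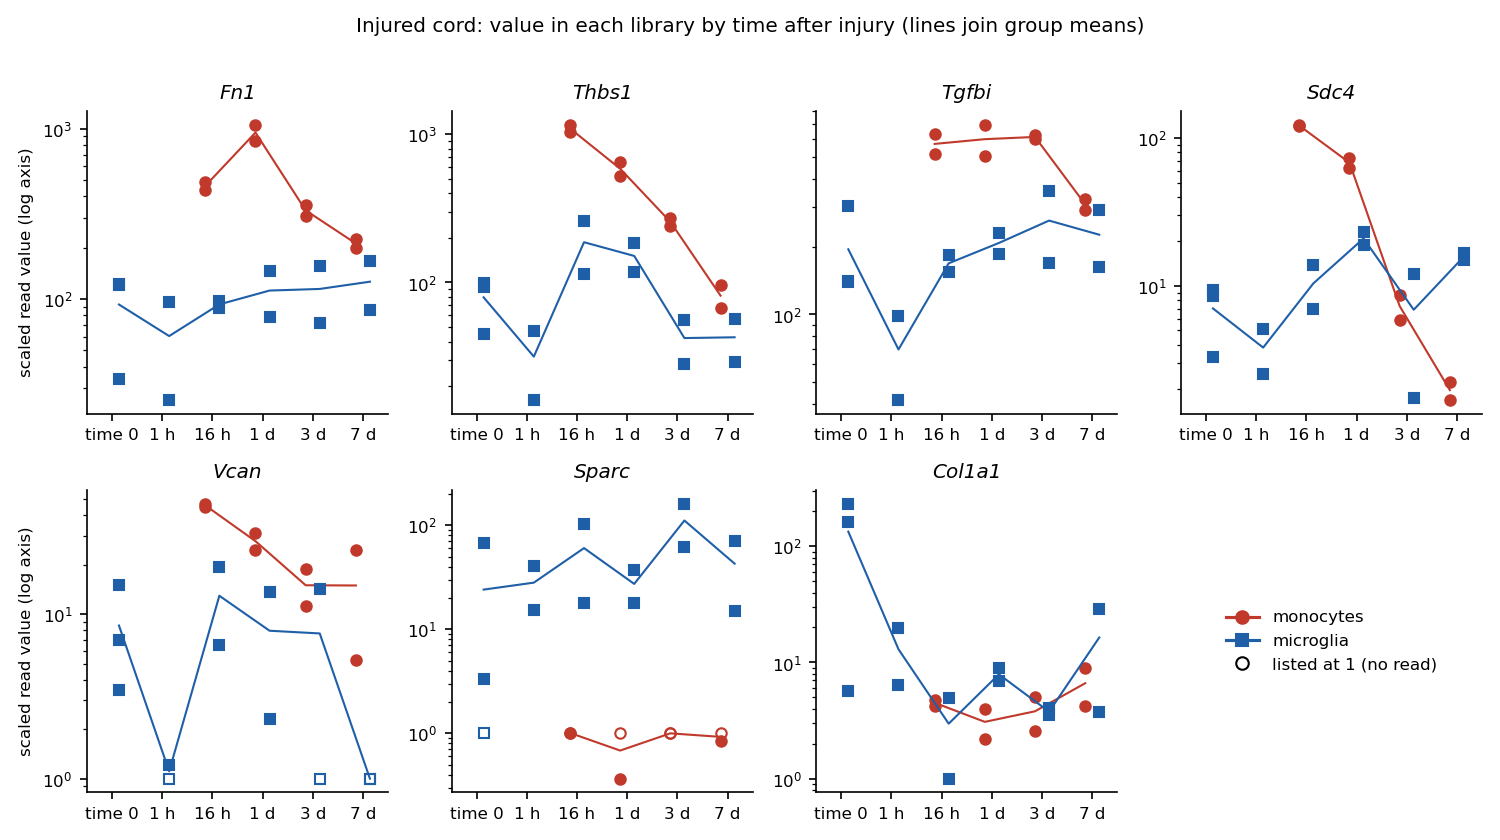
Scaled reads (log axis) of 7 matrix genes in every cord library by time after injury, for monocytes (red circles) and microglia (blue squares), with lines through group means and open symbols where no read was counted. Thbs1 and Sdc4 in monocytes are highest at 16 h and lowest at 7 days, and Sparc stays near 1 in all 8 monocyte libraries.

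In the cord, monocytes carried more Fn1, Thbs1 and Tgfbi than microglia in every library at each of the 4 shared times, and Sparc was nearly without reads in monocytes and present in microglia. Not all of these differences passed the test, and at 7 days 0 of the 7 genes did. Here and below, the share of all genes whose libraries separate in this way was not counted. At 16 h, 4 of 7 matrix genes passed the test, all higher in monocytes; 1.3% of all genes passed in that comparison. Fn1 was 435 and 487 scaled reads in monocytes, against 96.8 and 88.9 in microglia, a 4.92-fold difference (log2 2.30 ± 0.53 SE, adjusted p = 0.0204). Thbs1 was 1032 and 1153 in monocytes and 115 and 259 in microglia, 6.29-fold higher (adjusted p = 0.00241). Tgfbi was 514 and 631 in monocytes and 154 and 184 in microglia, 3.37-fold higher (adjusted p = 0.0193). Sdc4, the co-receptor for Fn1 and Thbs1, showed the widest gap of the 4, with 123 and 120.2 in monocytes and 6.99 and 13.8 in microglia (11.3-fold, adjusted p = 0.0272). The groups did not overlap for any of these genes.

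The calls at 16 h depend on single libraries. Fn1, Tgfbi and Sdc4 lost theirs when any 1 of the 4 libraries was left out, with adjusted p from 0.0818 (Sdc4 without microglia replicate 2) to 0.336 (Tgfbi and Sdc4 without monocyte replicate 2), while the differences stayed between log2 1.61 and 3.94. Thbs1 lost its call without microglia replicate 1 (log2 2.07, adjusted p = 0.142) and without monocyte replicate 2 (log2 2.57, adjusted p = 0.0757). Without the 4 libraries with red blood cell RNA, 1 of them microglia replicate 2 here, Thbs1 alone was called. Neutrophil markers were 0.289 and 0.283% of the monocyte totals and 15 and 11.4% of the microglia totals at this time. Their part in the differences was not tested.

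At later times fewer of the 7 genes passed. At 1 day Fn1 alone was called, against 0.706% of all genes, with 845 and 1051 scaled reads in monocytes and 146 and 78.3 in microglia (8.75-fold higher, adjusted p = 0.000971). The call, at log2 3.13 ± 0.53, was lost without microglia replicate 2 (log2 2.69, adjusted p = 0.128) and without the 4 libraries with red blood cell RNA, 2 of which are of this time (log2 2.84, adjusted p = 0.502). At 3 days 2 genes were called, against 0.913% of all genes. Thbs1 was 271 and 242 in monocytes and 56.3 and 28.1 in microglia (6.29-fold higher, adjusted p = 0.00325); the call was lost without microglia replicate 2 (adjusted p = 0.0858) or either monocyte replicate (adjusted p = 0.0812 and 0.0551). At 7 days none of the 7 genes was called by limma, against 0.925% of all genes, and 3 had an unadjusted p under 0.05.

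At 7 days the Fn1, Thbs1 and Tgfbi differences were smaller in value than at 16 h, and the test of that change passed for none of them (adjusted p = 0.884, 0.849 and 0.863). At 7 days Fn1 was 224 and 199 in monocytes and 86.5 and 166 in microglia (log2 0.81 ± 0.53, adjusted p = 0.514). Tgfbi was 628 and 602 in monocytes and 169 and 354 in microglia at 3 days (log2 1.33 ± 0.40, adjusted p = 0.122), and 291 and 326 against 162 and 291 at 7 days (log2 0.50 ± 0.40, adjusted p = 0.626). The lowest monocyte value and the highest microglia value of Tgfbi at 7 days lay within 1 scaled read of each other.

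**Figure D2:**
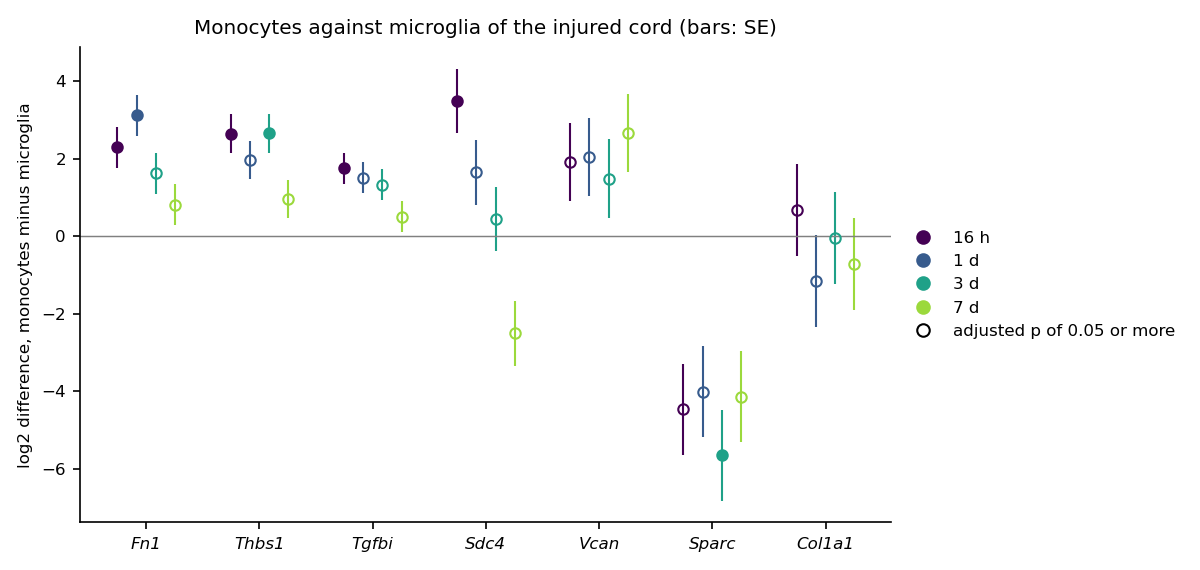
Log2 difference of monocytes minus microglia for 7 matrix genes at 16 h and 1, 3 and 7 days, with bars of 1 SE; filled points passed the test. Fn1, Thbs1 and Tgfbi lie above 0 at all 4 times, Sparc lies below 0, and Sdc4 crosses from 3.49 at 16 h to -2.50 at 7 days.

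Within the monocytes, Thbs1 and Sdc4 fell with time in the cord, and Fn1 had its highest values at 1 day. Thbs1 was 1032 and 1153 scaled reads at 16 h, 522 and 647 at 1 day, 271 and 242 at 3 days and 67.1 and 96.0 at 7 days, and no 2 neighbouring times overlapped. At 7 days it was 81.6 ± 20.4, against 1093 ± 86.1 at 16 h (SD, n = 2 each; 13.4-fold lower, adjusted p = 4.0e-05). Sdc4 was 123 and 120.2, then 73.3 and 63.1, 8.72 and 5.90, and 1.70 and 2.25 at the same times, again without overlap. It fell 15-fold by 3 days (adjusted p = 0.0431) and 41.4-fold by 7 days (adjusted p = 0.000447). The 2 values at 7 days rest on 2 and 3 reads, against 724 and 510 reads at 16 h. The microglia markers made up 0.325 to 0.511% of the monocyte totals at 7 days and 0.138 to 0.178% at 16 h, and the neutrophil markers 0.469 to 0.574% and 0.283 to 0.289%. Their part in the fall was not tested.

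Of the 7 genes, 0 were called at 1 day by limma, where no gene of the table was (0%) and none had an unadjusted p under 0.05; 1 was called at 3 days (0.17% of all genes) and 2 at 7 days (0.596%). Without any 1 of the 4 libraries compared at 3 days, Sdc4 lost its call (adjusted p from 0.384 to 1), and the fold moved to between log2 -4.15 and -3.66. At 7 days both genes kept their calls when any 1 library was left out. They lost them when the fit held the 4 libraries compared alone (Thbs1 adjusted p = 0.122, Sdc4 adjusted p = 0.114), with far fewer libraries behind the spread.

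Fn1 in monocytes was 435 and 487 at 16 h, 845 and 1051 at 1 day, 354 and 308 at 3 days and 224 and 199 at 7 days. Its order was 1 day, 16 h, 3 days and 7 days with no overlap between neighbours, yet no change from 16 h passed the test (day 1 log2 1.03 ± 0.53, adjusted p = 1; day 7 log2 -1.12 ± 0.53, adjusted p = 0.742). Of the platelet markers, Pf4 and Gp1bb alone were in the table, and together they made up 0.0461 and 0.0503% of the 1-day monocyte totals and 0.00513 to 0.00984% of the other 6. The 1-day share was nearly all that of Pf4, which was 59.4 and 66.8 scaled reads at 1 day and 6.36 to 11.2 in the other 6, while Gp1bb was listed at 1 and at 0.264 at 1 day. The 2 markers made up 0.00154 to 0.0833% of the microglia totals. Pf4 was also read in the macrophage cultures, at 1167 to 1654 scaled reads, so it does not mark platelets alone. Platelets carry Fn1 and Thbs1, and the part of their RNA in the 1-day values was not tested. Tgfbi was level over the first 3 times (514 to 695, all overlapping) and 291 and 326 at 7 days (log2 -0.88 ± 0.40, adjusted p = 0.682). Vcan was 46.9 and 44.9 at 16 h, 24.4 and 31.2 at 1 day, 18.7 and 11.3 at 3 days and 24.6 and 5.25 at 7 days, below its 16 h values in all later libraries without a call.

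The change from 16 h to 7 days differed most between the cell types for Sdc4. It was 15 and 16.6 in microglia at 7 days and 6.99 and 13.8 at 16 h, while monocytes fell, which gave a difference of changes of log2 -6.00 ± 1.18 (adjusted p = 0.0826). None of the 7 genes passed this test with limma (0.0122% of all genes did), and 3 had an unadjusted p under 0.05. The Sdc4 difference passed under 6 of 17 alternatives, 2 of which left out a 7-day microglia library (adjusted p = 0.0278 without replicate 1 and 0.045 without replicate 2). The microglia values at 7 days rest on 4 reads each.

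In microglia over the injury, no change of the 7 genes from time 0 passed the test at any of the 5 times. The shares of all genes called by limma were 0.073% at 1 h, 0.694% at 16 h, 0.913% at 1 day, 0% at 3 days and 0.438% at 7 days, and 4, 3, 2, 2 and 2 of the 7 had an unadjusted p under 0.05. Thbs1 came nearest to a pattern of the 3 main genes: it was 99.5, 45.3 and 93.4 at time 0, 16.2 and 47.1 at 1 h, 115 and 259 at 16 h, 185 and 117 at 1 day, 56.3 and 28.1 at 3 days and 56.4 and 29.1 at 7 days. Both 16 h and both 1-day libraries lay above all 3 of time 0 (log2 1.19 ± 0.45, adjusted p = 0.267, and 0.96 ± 0.45, adjusted p = 0.365). Tgfbi at 1 h was 41.8 and 98.0, below the 139, 142 and 304 of time 0 (log2 -1.49 ± 0.37, adjusted p = 0.175). Fn1 ranged from 25.6 to 166 over the 13 libraries, and its 6 groups overlapped at every neighbouring step of their order.

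Sparc and Col1a1 split the time 0 microglia. Sparc was 3.32, 67.9 and 1.00 in the 3 time 0 libraries, where the last has no read, and Col1a1 was 232, 5.66 and 163. Replicate 2 thus had the high Sparc and the low Col1a1; its microglia markers made up 0.529% of the total, against 0.218% in replicate 1 and 0.177% in replicate 3. Without replicate 2, Col1a1 was called lower than at time 0 at 16 h (log2 -5.83, adjusted p = 0.00394), 1 day (log2 -4.47, adjusted p = 0.0172), 3 days (log2 -5.36, adjusted p = 0.0118) and 7 days (log2 -4.03, adjusted p = 0.0384). With it, the same changes were log2 -4.20, -2.84, -3.74 and -2.41 with adjusted p of 0.0682, 0.241, 0.113 and 0.275. Of 14 markers of fibroblasts and mural cells, Acta2 and Cspg4 alone were measured in the cord apart from the matrix genes themselves. Acta2 was 28.2 in replicate 1 and was listed at 1 in replicates 2 and 3. Cspg4 was listed at 1 in all 3 time 0 libraries. The part of RNA of such cells in the Col1a1 values was not tested.

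Sparc was listed at 1 or rested on 1 to 6 reads in the 8 monocyte libraries, and was found in 12 of 13 cord microglia libraries, from 3.32 to 161 scaled reads. At 3 days both monocyte libraries had no read, against 61.6 and 161 in microglia, so monocytes were at least 184-fold lower (floor of 3 reads per library; adjusted p = 0.00987). The call was lost without microglia replicate 2 (adjusted p = 0.132) and without either monocyte library (adjusted p = 0.121 and 0.152), and without the 4 libraries with red blood cell RNA (adjusted p = 0.122). At 16 h, 1 day and 7 days all monocyte libraries also lay below all microglia libraries without a call (adjusted p = 0.0512, 0.128 and 0.0874). In microglia the difference of 3 days from time 0 was log2 3.58 ± 1.07 (adjusted p = 0.124), with time 0 replicate 2 above the lower 3-day library. Without that replicate it was log2 5.10 (adjusted p = 0.023). The microglia markers stood at 0.496 and 1.38% of the total at 3 days and neutrophil markers at 17.0 and 4.40%; the library with 1.38% had the 161 scaled reads of Sparc. Their part in the Sparc values was not tested.

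**Figure D3:**
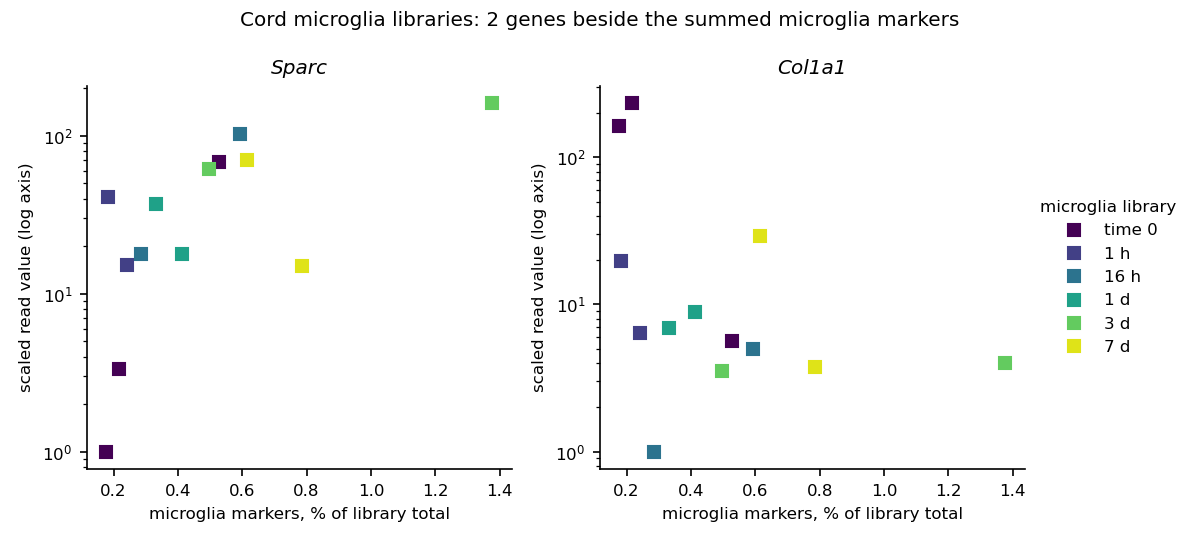
Scaled reads (log axis) of Sparc and Col1a1 in the 13 cord microglia libraries against the summed share of 10 microglia markers, coloured by time after injury. The 2 time 0 libraries with the least Sparc hold the most Col1a1 and at most 0.218% of microglia markers, and the 3-day library at 1.38% holds the most Sparc.

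Vcan was near the limit of reads in cord microglia. It ranged from 5.25 to 46.9 in monocytes, and was listed at 1 in 4 of 13 microglia libraries and rested on at most 19.4 estimated reads in the others. It was higher in monocytes than in microglia in all libraries at 16 h and 1 day without a call. At 7 days neither microglia library had a read, which allows values above the lower monocyte library, so the cell types could not be ordered. Col1a1 stood at 2.20 to 9 in the 8 monocyte libraries and did not separate the cell types at 16 h, 3 days or 7 days.

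Other genes of matrix biology in the cord were mostly not called. Beside 1.3% of all genes called at 16 h and 0.913% at 3 days, 1 of 14 matrix receptors measured was higher in monocytes at 16 h, the syndecan Sdc1 (32.2 ± 11 scaled reads, against 1.98 ± 1.39 in microglia, SD, n = 2 each; adjusted p = 0.034), and 1 at 3 days, the hyaluronan receptor Cd44 (55.0 ± 10.5 against 7.29 ± 4.62; adjusted p = 0.017). Of 12 other matrix proteins, 3 were higher in monocytes at 3 days: the galectins Lgals3 (751 ± 57.9 against 162 ± 3.31) and Lgals1 (84.0 ± 1.22 against 4.90 ± 5.51), and osteopontin, Spp1 (452 ± 113 against 24.9 ± 10.3). At 3 days the median was log2 0.95 for matrix receptors, 0.13 for other matrix proteins and 1.08 for collagen folding genes. It was 0.29 for TGFb response genes and 0.07 for all genes. In the same order, the medians were 0.47, 0.34, 0.14, 0.44 and 0 at 16 h. At 1 day they were 0.45, 0.10, 0.80, 0.24 and 0.01. At 7 days they were 0.40, 0.17, -0.05, 0.45 and 0.10.

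The matrix crosslinking enzyme transglutaminase 2, Tgm2, moved like Sdc4. It was 769 ± 78.8 in monocytes at 16 h and 140.2 ± 85.4 in microglia (adjusted p = 0.018), and in monocytes it fell to 93.8 ± 6.41 at 7 days, against those 769 at 16 h (log2 -3.02, adjusted p = 0.0065). Tnfaip6, a hyaluronan-binding protein, fell to 0.925 ± 0.106 in monocytes at 7 days, against 12.1 ± 0.550 at 16 h (adjusted p = 0.017). Of 13 TGFb response genes, only Id2 was called in the changes of monocytes from 16 h. It was 50.3 ± 7.41 at 7 days against 212 ± 46.4 at 16 h (adjusted p = 0.047). Between the cell types, 1 of the 13 was higher in monocytes at 3 days, where 0.913% of all genes were called.

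Over all 21 cord libraries, the gene most like Fn1 was Tgfbi (Pearson r = 0.90 of log2 values among 1219 genes with a mean of at least 20), followed by Ccl9, Tpt1, Ccl2 and Plec (r = 0.83 to 0.86). Thbs1 was most like Ccl9, Cd44, Id2, Fcgr2b and Vim (r = 0.83 to 0.86), and Tgfbi most like Ahnak, Fn1, B4galt6, Rpl10 and Ecm1 (r = 0.84 to 0.90). Sdc4 was most like Arg1 (r = 0.89), the arginase of wound macrophages, and then Tgm2, Ccl6, Fcgr3 and 2310016C08Rik (r = 0.81 to 0.83). Sparc was most like Cd81, C1qa, Olfml3, Ptgs1 and Hdc (r = 0.79 to 0.88), of which C1qa and Olfml3 are microglia markers. Col1a1 was most like Atxn7l3b, Ppt1, Abca7, Mark2 and Nudt3 (r = 0.63 to 0.80). These points share the difference in cell type and depth between monocytes and microglia.

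**Figure D4:**
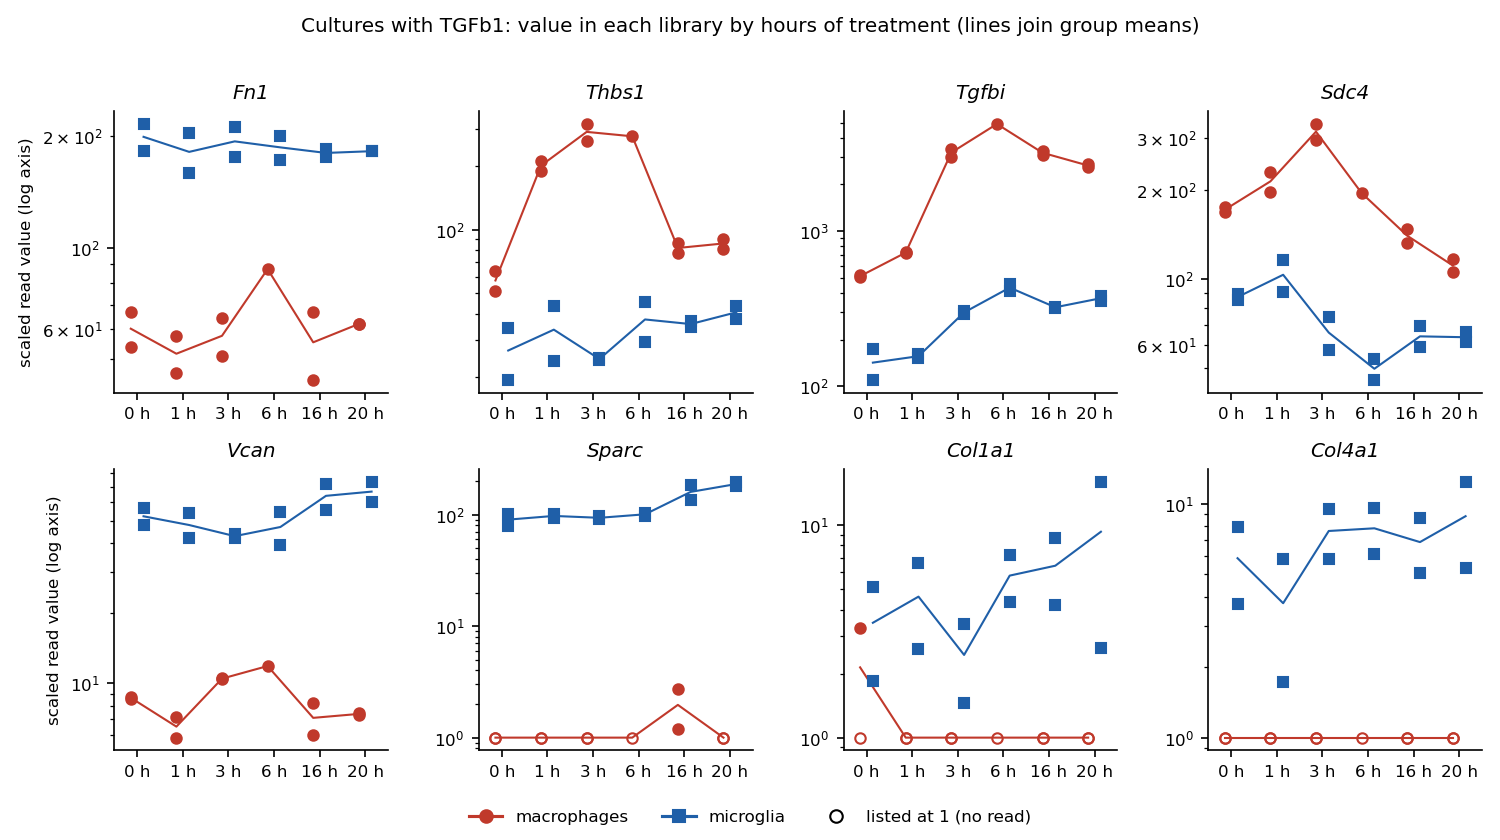
Scaled reads (log axis) of 8 matrix genes in every culture library by hours with TGFb1, for macrophages (red circles) and microglia (blue squares), with lines through group means and open symbols where no read was counted. Tgfbi climbs in both cultures, Thbs1 and Sdc4 peak at 3 h in macrophages, and Fn1 stays level in both.

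In the cultures, TGFb1 was followed by a large rise of Tgfbi in macrophages and a smaller one in microglia. Thbs1 had an early and transient rise in macrophages, and Sdc4 changed in opposite directions in the 2 cultures at 3 and 6 h. Fn1, which many cell types raise under TGFb1, did not pass the test in either culture. Of the 8 genes, 2 were called in macrophages at 1 h (3.01% of all genes), 3 at 3 and 6 h pooled (13.2%) and 2 at 16 and 20 h (12.3%). In microglia 0 were called by limma at 1 h (0.34% of all genes; 0 had an unadjusted p under 0.05), 2 at 3 and 6 h (1.16%) and 1 at 16 and 20 h (3.01%). The change differed between the cultures for 3 of the 8 genes at 3 and 6 h (5.38% of all genes) and for 1 at 16 and 20 h (4.38%). From 3 and 6 h to 16 and 20 h, a contrast added after the values were seen, 3 were called in macrophages (20.6% of all genes). In microglia 0 were called by limma there (1.22% of all genes), and 2 had an unadjusted p under 0.05.

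Tgfbi in macrophages was 504 and 521 scaled reads at 0 h, 735 and 719 at 1 h, 3397 and 3011 at 3 h, 4894 at 6 h, 3280.3 and 3106 at 16 h and 2704 and 2581 at 20 h. All treated libraries lay above both 0 h libraries, by 1.42-fold at 1 h (adjusted p = 0.0323), 7.71-fold at 3 and 6 h (log2 2.95 ± 0.12, adjusted p = 3.2e-12) and 5.66-fold at 16 and 20 h (log2 2.50 ± 0.11, adjusted p = 4.0e-12). The 1 h call was lost without any 1 of the 4 libraries at 0 and 1 h (adjusted p from 0.0963 to 0.136). The order of groups was 6 h, 3 h, 16 h, 20 h, 1 h and 0 h, and only 3 h and 16 h overlapped. The later values were lower than those at 3 and 6 h (log2 -0.45 ± 0.10, adjusted p = 0.00313), and without the lone 6 h library this became log2 -0.14 (adjusted p = 0.428).

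Tgfbi in microglia was 174 and 110.4 at 0 h, 152 and 161 at 1 h, 291 and 307 at 3 h, 453 and 412 at 6 h, 320.4 and 326 at 16 h and 384 and 355 at 20 h. It rose 2.58-fold at 3 and 6 h (log2 1.37 ± 0.11, adjusted p = 5.2e-07) and 2.48-fold at 16 and 20 h (log2 1.31 ± 0.11, adjusted p = 2.5e-07), with no overlap with 0 h. These 2 calls held under all 14 alternatives each. At 1 h the change was log2 0.17 (adjusted p = 1), and it was called without 0 h replicate 1 (log2 0.50, adjusted p = 0.0184). The rise was larger in macrophages by log2 1.58 ± 0.16 at 3 and 6 h (adjusted p = 4.1e-06) and by 1.19 ± 0.16 at 16 and 20 h (adjusted p = 6.3e-05).

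Thbs1 in macrophages was 51.4 and 63.6 at 0 h, 212 and 191 at 1 h, 317 and 265 at 3 h, 277 at 6 h, 86.3 and 77.6 at 16 h and 90.8 and 81.4 at 20 h. It rose 3.47-fold by 1 h (adjusted p = 0.000337) and 4.89-fold at 3 and 6 h (log2 2.29 ± 0.25, adjusted p = 2.4e-06). Both calls were lost when the fit held the groups compared alone (adjusted p = 0.195 and 0.0811). It then fell 3.35-fold between 3 and 6 h and 16 and 20 h (adjusted p = 7.0e-06), where it still lay above 0 h in all 4 libraries without a call (log2 0.54 ± 0.23, adjusted p = 0.149). In microglia it stayed between 19.5 and 45.7 over all 12 libraries, with neighbouring groups overlapping throughout (3 and 6 h log2 0.21 ± 0.23, adjusted p = 1; 16 and 20 h 0.54 ± 0.23, adjusted p = 0.336). The change at 3 and 6 h was larger in macrophages by log2 2.08 ± 0.35 (adjusted p = 0.000758), and at 16 and 20 h the difference of changes was log2 0.00 ± 0.33 (adjusted p = 0.999).

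Sdc4 moved in opposite directions in the 2 cultures at 3 and 6 h. In macrophages it was 168 and 175 at 0 h, 230.4 and 198 at 1 h, 296 and 335 at 3 h, 196 at 6 h, 148 and 133 at 16 h and 106 and 117 at 20 h. In microglia it was 84.9 and 89.0, 90.7 and 116, 57.6 and 74.3, 53.8 and 45.7, 69.1 and 58.9, and 66.1 and 61.0 at those times. At 3 and 6 h it was 1.44-fold higher than at 0 h in macrophages (adjusted p = 0.0252) and 1.52-fold lower in microglia (adjusted p = 0.0379), a difference of changes of log2 1.13 ± 0.21 (adjusted p = 0.0019). At 16 and 20 h it was 1.37-fold lower than at 0 h in macrophages (adjusted p = 0.0375), and log2 -0.44 ± 0.14 in microglia missed the threshold (adjusted p = 0.111). From 3 and 6 h to 16 and 20 h it fell 1.98-fold in macrophages (adjusted p = 1.3e-05).

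The single-culture calls of Sdc4 were less stable than the difference between cultures, which held under all 20 alternatives. The macrophage rise was lost without 0 h replicate 1 (adjusted p = 0.122) or 2 (adjusted p = 0.0819) and without 3 h replicate 2 (adjusted p = 0.0611). The macrophage fall was lost without either 0 h replicate (adjusted p = 0.117 and 0.182), 16 h replicate 2 (adjusted p = 0.0847) or 20 h replicate 1 (adjusted p = 0.0807). The microglia fall was lost without either 0 h replicate (adjusted p = 0.206 and 0.368), 3 h replicate 1 (adjusted p = 0.154) or 6 h replicate 2 (adjusted p = 0.134).

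**Figure D5:**
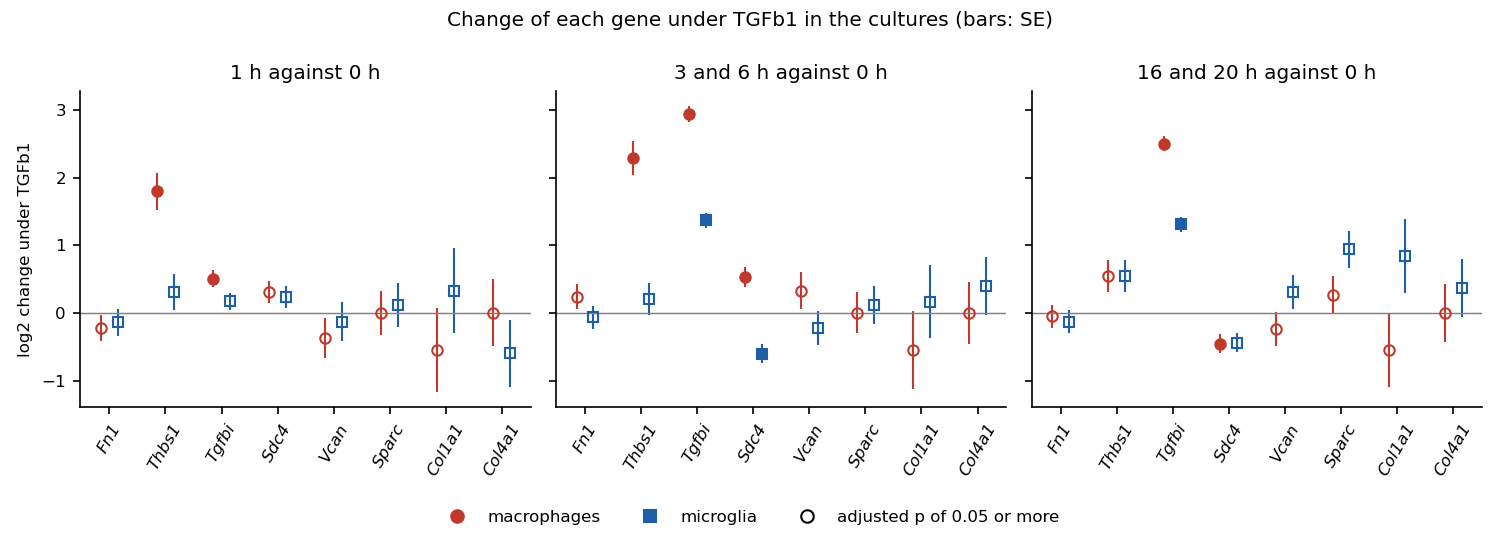
Log2 change of the 8 matrix genes under TGFb1 against 0 h, in macrophages (red circles) and microglia (blue squares), with bars of 1 SE; filled points passed the test. Tgfbi is at 2.95 in macrophages and 1.37 in microglia at 3 and 6 h, Sdc4 is on opposite sides of 0 there, and Fn1 is near 0 in all 3 panels.

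Fn1 was 43.8 to 87.4 in the 11 macrophage libraries and 159 to 216 in the 12 microglia libraries. The highest macrophage value was that of the lone 6 h library. All groups next to each other in order of level overlapped, except macrophages at 6 h and 20 h, and the changes from 0 h lay between log2 -0.22 and 0.24 in macrophages and between -0.14 and -0.07 in microglia (adjusted p from 0.477 to 1). Vcan was 5.83 to 11.9 in macrophages and 39.3 to 73.4 in microglia, also without a call against 0 h.

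Sparc was listed at 1 in 9 of 11 macrophage libraries and rested on 1 and 2 reads in the other 2. In microglia it was 78.3 and 102 at 0 h, 92.4 and 102 at 1 h, 96.3 and 91.0 at 3 h, 97.2 and 104 at 6 h, 185 and 134 at 16 h and 197 and 179.6 at 20 h. All 4 late libraries lay above all 8 earlier ones, at log2 0.94 ± 0.28 against 0 h (adjusted p = 0.0839) and 0.82 ± 0.23 against 3 and 6 h (adjusted p = 0.102). Each of the 2 was called under 5 alternatives. In the microglia cultures the 5 fibroblast and mural markers made up 0.0151 to 0.0194% of the total at 16 and 20 h and 0.0123 to 0.0126% at 0 h. These markers did not all move the same way. Acta2 was 32.4 and 27.1 at 0 h and 102 to 179 at 16 and 20 h. Cspg4 was 37.7 and 45.4 at 0 h and 67.5 to 83.2 at 16 and 20 h. Col1a2 was 4.35 and 2.78 at 0 h and 10.1 to 14.9 at 16 and 20 h. Loxl1 was 2.18 and 4.64 at 0 h and 1.57 to 10.1 at 16 and 20 h. Pdgfra was 128 and 119 at 0 h and 46.4 to 54.2 at 16 and 20 h. The 11 astrocyte markers made up 0.0330 to 0.0378% at 16 and 20 h and 0.0291 to 0.0305% at 0 h. The part of such RNA in the late Sparc values was not tested.

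Before TGFb1 was added, 7 of the 8 genes differed between the cultures, where 51.1% of all genes did. Macrophages were higher for Thbs1 (2.17-fold, adjusted p = 0.00182), Tgfbi (3.68-fold, adjusted p = 2.0e-10) and Sdc4 (1.96-fold, adjusted p = 4.6e-05). They were lower for Fn1 (60.3 ± 9.06 in macrophages and 199 ± 23.6 in microglia, SD, n = 2 each; 3.28-fold, adjusted p = 4.4e-07) and Vcan (5.49-fold, adjusted p = 5.8e-07). Sparc was at least 25.9-fold lower in macrophages, which had no read of it, and Col4a1 at least 1.68-fold lower (floor of 3 reads per library). The Thbs1 call was lost without microglia 0 h replicate 2 (log2 0.73, adjusted p = 0.0608) and the Col4a1 call without microglia 0 h replicate 1 (log2 -1.24, adjusted p = 0.101).

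At 16 and 20 h all 8 genes differed between the cultures, as did 64.1% of all genes. Tgfbi was 8.38-fold higher in macrophages (adjusted p = 2.1e-16), and Fn1 was 3.09-fold lower (adjusted p = 3.3e-09). Col1a1 and Col4a1, which had no read in macrophages at these times, were 2.65 to 15.9 and 5.06 to 12.4 in microglia (adjusted p = 0.000899 and 3.6e-05). Both calls were lost when values below 5 were raised to 5 (adjusted p = 0.0553 and 0.0805) and with quantile normalization (adjusted p = 0.0872 and 0.0519).

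The microglia cultures held RNA of other glial cells beside these genes. The 9 oligodendrocyte lineage markers made up 0.00738 to 0.0135% of the total in macrophages and 0.0607 to 0.0786% in microglia. Olig1 and Olig2 were listed at 1 in macrophages, and at 0 h were 541 and 572, and 154 and 179, in the microglia cultures. Cnp of the same list went the other way, at 197 and 186 in macrophages and 116 and 93.7 in microglia at 0 h. The 11 astrocyte markers made up 0.00569 to 0.0118% in macrophages and 0.0288 to 0.0378% in microglia. Among them, Aldh1l1 at 0 h was 9.84 and 12.2 in macrophages and 7.25 and 8.35 in microglia. Aldoc at 0 h was 85.3 and 69.8 in macrophages and 74.0 and 73.3 in microglia. The brain proteoglycan neurocan, Ncan, had no read in macrophages at 0 h and was 1903 ± 216 in microglia. Fn1, Vcan, Sparc, Col1a1 and Col4a1 are also made by astrocytes, oligodendrocyte precursors, fibroblasts or mural cells, and the part of such RNA in the higher microglia values was not tested.

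Of 20 matrix receptors measured in macrophages, 6 rose and 3 fell at 3 and 6 h, and 6 rose and 4 fell at 16 and 20 h, where 13.2% and 12.3% of all genes were called. The medians were log2 0.05 and 0.04, beside 0 for all genes. The integrin chain Itga5, which pairs with the b1 chain as the classical Fn1 receptor, followed the time course of Thbs1. It was 549 ± 34.0 at 3 and 6 h (SD, n = 3) and 148 ± 8.58 at 0 h (n = 2; log2 1.86, adjusted p = 1.9e-09), and it fell by log2 1.39 from there to 16 and 20 h (adjusted p = 8.8e-09). Itgb5, a chain of another matrix integrin, rose late instead, to 1298 ± 227 at 16 and 20 h, against 297 ± 82.4 at 0 h (log2 2.14, adjusted p = 6.0e-12). Cd36, a Thbs1 receptor, was 902 ± 201 at 16 and 20 h and 1724 ± 41.9 at 0 h (log2 -0.96, adjusted p = 9.1e-09).

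In microglia 2 receptors rose at 3 and 6 h, Itga5 and Itgb5, and at 16 and 20 h 2 rose and 3 fell, beside 1.16% and 3.01% of all genes called. Itga5 was 233 ± 24.6 at 3 and 6 h and 132 ± 22.0 at 0 h (log2 0.81, adjusted p = 0.0003), a rise smaller than in macrophages by log2 1.04 ± 0.17 (adjusted p = 0.00049). Cd36 was 368 ± 33.0 at 16 and 20 h and 837 ± 7.21 at 0 h (log2 -1.19, adjusted p = 2.4e-09).

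Of 30 other matrix proteins, 0 rose and 1 fell at 3 and 6 h in macrophages, and 2 rose and 2 fell at 16 and 20 h, beside 13.2% and 12.3% of all genes called. The 2 that rose were Emilin1 (128 ± 20.7 at 16 and 20 h, 47.7 ± 20.7 at 0 h, adjusted p = 0.0087) and Emilin2 (346 ± 45.7 and 220.0 ± 16.0, adjusted p = 0.045), which sit on elastic fibres. In microglia 3 rose and 2 fell at 16 and 20 h (3.01% of all genes), among them tenascin C, Tnc (91.8 ± 15.2 at 16 and 20 h, 34.9 ± 3.15 at 0 h, adjusted p = 0.012), and Ncan (2837 ± 147 and 1903 ± 216, adjusted p = 0.013). The median of the list in microglia was log2 0.62 there, beside 0.01 for all genes.

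Tgm2, among 20 genes of collagen folding and crosslinking, followed Thbs1 in macrophages. It was 949.9 ± 34.2 at 1 h and 2145 ± 303 at 3 and 6 h, against 335 ± 33.7 at 0 h (adjusted p = 1.6e-05 and 7.4e-10), and 577 ± 29.3 at 16 and 20 h (log2 -1.94 against 3 and 6 h, adjusted p = 6.8e-09). The lysyl oxidase Loxl3 was lower at 16 and 20 h (155 ± 18.1, against 325 ± 42.3 at 0 h, adjusted p = 2.0e-06), and the lysyl hydroxylase Plod1 was higher (829.9 ± 82.5 against 551 ± 22.0, adjusted p = 2.7e-05).

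Of 19 TGFb response genes measured, 8 rose and 1 fell at 3 and 6 h in macrophages and 4 rose and 1 fell in microglia, where 13.2% and 1.16% of all genes were called. The medians were log2 0.13 and 0.16. Pmepa1, a TGFb-induced inhibitor of the pathway, was 486 ± 48.7 in macrophages at 3 and 6 h and 21.9 ± 1.52 at 0 h (log2 4.45, adjusted p = 5.8e-17). In microglia it was 863 ± 92.0 at 3 and 6 h and 259.9 ± 26.4 at 0 h (log2 1.72, adjusted p = 6.6e-10). The rise was larger in macrophages by log2 2.72 ± 0.13 (adjusted p = 1.9e-10), and microglia stood higher at 0 h (log2 -3.51 for macrophages against microglia, adjusted p = 6.2e-16).

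Over the 23 culture libraries, Thbs1 was most like Slc20a1, Plaur, Rara, Tubb6 and Tes (r = 0.93 to 0.96, among 8774 genes with a mean of at least 20), and Tgfbi most like Inf2, Gcnt1, Hcls1, Gna15 and B4galt1 (r = 0.95 to 0.97). Sdc4 was most like C5ar1, Adam8, Pmp22, Mrpl54 and Ninj1 (r = 0.95 to 0.96). Fn1 was most like Jakmip2, Tubb3, Col11a2, Scd2 and Arnt2 (r = 0.98), Sparc most like Pkia, Mmd2, Mapt, Scg5 and Fxyd6 (r = 1.00), and Vcan most like Tubb3, Fam84a, Rgma, Fam181b and Scg5 (r = 0.98 to 0.99). Tubb3 and Mapt are markers of nerve cells. These points share the difference between the 2 cultures.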

How the data were processed

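RNA-seq of 44 libraries was used, 21 from injured cord and 23 from culture. The submitters' processing notes name TopHat and the mm9 genome. How reads were counted, with which annotation, and how they were scaled is not given in the sources. The values deposited by the authors are a signal, scaled reads per gene, with exactly 1 where no read was counted. They are not counts, so no count model was fitted. The value of 1 read in a library was taken from the smallest step between its low values, and estimated reads are values divided by it.

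Values were taken as log2(value + 1), and fold changes are on that scale, which understates changes of low genes. All groups of a table entered 1 fit with limma 3.58.1 in R 4.3.3, with a variance trend and robust moderation. Benjamini-Hochberg adjustment ran over all genes of the table, and adjusted p under 0.05 was called. Genes with a value of at least 1 in at least 2 libraries were kept, which all genes met, since genes without a read are entered as 1. The fit was tested on simulated data. Culture times were pooled as 3 and 6 h and as 16 and 20 h.

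The 8 genes, the 4 gene lists and the 9 marker lists were chosen with earlier results of these data known. Of each list, genes were named from the up to 4 a comparison with the smallest p among those called; values of such a gene at other times stand beside it. Likeness is Pearson's r of log2 values with the 5 most alike genes named. Alternatives covered the pseudocount, the filter, the normalization, the variance model, a replicate block, the groups in the fit and each library left out. Figures were drawn with matplotlib 3.10.9.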

Additional observations from a re-analysis of the deposited data

Results flagged for a closer look

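In 4 cases the change under TGFb1 differed between the macrophage and the microglia cultures by a test of the difference itself. Thbs1 at 3 and 6 h changed by log2 2.08 ± 0.35 more in macrophages (adjusted p = 0.000758), with all 3 macrophage libraries above both 0 h libraries. Tgfbi changed by log2 1.58 ± 0.16 more in macrophages at 3 and 6 h (adjusted p = 4.1e-06) and by 1.19 ± 0.16 more at 16 and 20 h (adjusted p = 6.3e-05), while it rose in every library of both cultures at these times. Sdc4 differed by log2 1.13 ± 0.21 at 3 and 6 h (adjusted p = 0.0019), higher than at 0 h in all 3 macrophage libraries and lower in all 4 microglia libraries. These calls held under every alternative run for them, 20 for each at 3 and 6 h and 21 for Tgfbi at 16 and 20 h.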

How the results depend on the processing

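Of 2737 changes of single genes recomputed under an alternative, 2459 kept their direction and their side of the threshold, and 0 changed sign while called. Of 368 counts of called genes, 293 stayed within 1.5 times.

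With quantile normalization the number called was 1 for microglia at 16 h against time 0, 2 for monocytes at 3 days against 16 h, 1 for macrophages at 1 h, 1 at 16 and 20 h, 2 for cultured microglia at 16 and 20 h and 1 for these against 3 and 6 h. Without a variance trend it was 0 for monocytes at 3 days, 1 for monocytes against microglia at 16 h, 0 at 1 day and 0 at 3 days, 1 for the difference of changes in the cord, 1 for macrophages at 1 h, 1 at 16 and 20 h, 1 for cultured microglia at 3 and 6 h, 2 at 16 and 20 h and 1 for these against 3 and 6 h. With only the groups compared in the fit it was 0 for monocytes at 3 and at 7 days, 0 for monocytes against microglia at 16 h, 1 day and 3 days, 0 for macrophages at 1 h, 1 at 3 and 6 h and 1 at 16 and 20 h, and 1, 2 and 1 for the same 3 microglia comparisons. Without the 4 libraries with red blood cell RNA, chosen after seeing the data, it was 0 for monocytes at 3 days, and 1, 0 and 1 for monocytes against microglia at 16 h, 1 day and 3 days. With values below 5 raised to 5 it was 2 for monocytes against microglia at 16 h, 1 at 3 days, 1 for the difference of changes in the cord, and 2 and 1 for cultured microglia at 16 and 20 h against 0 h and against 3 and 6 h. A pseudocount of 5 gave 2 at 1 day, 1 for the difference of changes, and 2 and 1 for those microglia comparisons, and a mean of at least 10 gave 3 at 1 day and 1 for the difference of changes. Where no value shows it, the cause was not tested.

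Leaving out 1 library gave 0 to 1 called for microglia at 16 h, 1 day and 7 days against time 0, 0 to 2 at 3 days and 0 at 1 h. It gave 0 for monocytes at 1 and 3 days and 2 at 7 days, and 0 to 1, 0 to 1, 0 to 2 and 0 for monocytes against microglia at 16 h, 1, 3 and 7 days, with 0 to 1 for the difference of changes. In macrophages it gave 1 at 1 h, 2 to 3 at 3 and 6 h, 1 to 2 at 16 and 20 h and 2 to 3 between these. In cultured microglia it gave 0 to 1, 1 to 2 and 1, and 0 between the later times; between cultures it gave 6 to 7 at 0 h and 8 at 16 and 20 h, and 3 and 1 for the differences of changes.

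With the replicate number as a block, 2 genes were called for monocytes against microglia at 1 day and 1 at 7 days. Deviations of same-numbered libraries correlated at -0.025 to 0.064 over 45 pairs of cord groups and -0.014 to 0.029 over 10 pairs of macrophage groups. Such low values cannot show whether same-numbered libraries shared an animal or preparation, which the labels do not say. The titles of cultured microglia carry no number, but the column names give their libraries the letters a and b. Same-lettered deviations correlated at -0.048 to 0.052 over 15 pairs of groups, and a block by letter over all culture libraries, chosen after seeing the data, changed no count of called genes among the 8. With the neutrophil share as a covariate among cord microglia, 0 genes were called by limma at all 5 times, as for the matrix genes in the main fit. With no call to lose, this cannot show the part of neutrophil RNA. The planned count test was not run, since the values are not counts. Few reads limit Vcan, Col1a1 and Sdc4 in cord microglia most.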
